A study of Homo sapiens with 6 samples.

Results

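The 10 genes described here encode the main glucose transporter of the cell surface and 9 enzyme genes of glycolysis, the breakdown of glucose to pyruvate, and of its exit to lactate. They were taken by gene symbol (SLC2A1, HK1, HK2, GPI, PFKP, ALDOA, TPI1, PGK1, ENO1 and LDHA) from rows on reference chromosomes, and make up 10 of the 63152 genes counted. The rule that picks them is by symbol and sets no threshold on a measured value, but earlier results of these data were known at the choice. The libraries came from A549 cells, an established line from a human lung adenocarcinoma, harvested 72 hours after reverse transfection with siRNA at a final concentration of 10 nM. In 3 libraries (siRPS19) the siRNA was a pool against RPS19, a protein of the small ribosomal subunit, and in 3 libraries (siOTP) it was a non-targeting control. All cells therefore carried siRNA and transfection reagent, but the pool was of the siGENOME and the control of the ONTARGETplus product line, so that reagent line and target cannot be told apart. The cells are 1 cell line treated with 1 pool, and mRNA was measured, not enzyme activity or glucose flux.

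Glucose enters through facilitative transporters and is trapped as glucose-6-phosphate by hexokinase. It is then rearranged, phosphorylated again by phosphofructokinase and split by aldolase into triose phosphates, which the lower steps turn into pyruvate while ATP is made. Lactate dehydrogenase reduces pyruvate to lactate and returns the NAD that the pathway needs. Tumour cells, A549 among them, run this route at a high rate even with oxygen present, and several of its genes are known targets of the transcription factors HIF1A and MYC.

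Counts on genes ran from 20814110 to 23889372 per library. RPS19 mRNA averaged 41.7 ± 4.91 CPM (counts scaled to a common library size with TMM factors) in siRPS19 libraries and 1472 ± 96.6 CPM in siOTP libraries (SD, n = 3 each). Reads outside genes took 5.13% to 6.36% of entries in siRPS19 libraries and 3.39% to 3.85% in siOTP libraries, and the part of this in the results was not tested. All 10 A549 and epithelial markers were detected, at a summed 11657 to 12552 CPM in siRPS19 and 17974 to 19243 CPM in siOTP libraries. By the test described below, 3 of them were higher and 7 lower, beside 39.5% higher and 38.9% lower among all genes tested. This small set was not tested as such. Markers of leukocytes, endothelium and fibroblasts, 9 of 10 matched to a gene, summed to 15.4 to 20.9 CPM in siRPS19 and 35.2 to 42.6 CPM in siOTP libraries, almost all of it the collagen gene COL1A1. CD3E was at 0 in all 6 libraries, and PTPRC, CD68, VWF and CDH5 were at 0.26 CPM or less.

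Glycolysis mRNA was lower after siRNA against RPS19 along most of the pathway, and the change was uneven. Of the 10 genes, 8 were lower and 1, HK1, was higher, in edgeR's quasi-likelihood test at an adjusted p of 0.05 over the 17171 genes tested. Phosphofructokinase gene PFKP did not pass. TPI1, LDHA, ENO1 and HK2 were each more than 3-fold lower in siRPS19, GPI was 2.21-fold lower, and PGK1, ALDOA and SLC2A1 were lower by 1.26-fold to 1.82-fold. Together the 10 genes took 0.523% ± 0.0108 of gene counts in siRPS19 libraries and 1.01% ± 0.0304 in siOTP libraries (SD, n = 3 each).

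These counts stand against a broad difference between the groups. Of all genes tested, 78.3% passed, 38.9% as lower and 39.5% as higher, so a call alone says little about any gene. The groups did not overlap for all 10 genes, against 79.7% of all genes tested, so each of the 3 pairs of libraries with a shared date differed in the direction of the group means. The median log2 fold change of the 10 genes was -1.004, beside 0.02 for all genes tested (-0.72 beside 0.31 when libraries were scaled by their totals alone). TPI1, LDHA, ENO1 and HK2 lay deep in the lower tail, with lower log2 fold changes in 3.45%, 3.77%, 3.88% and 3.90% of tested genes. In these bulk libraries fewer cells of a kind and less RNA per cell cannot be told apart.

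**Figure D1:**
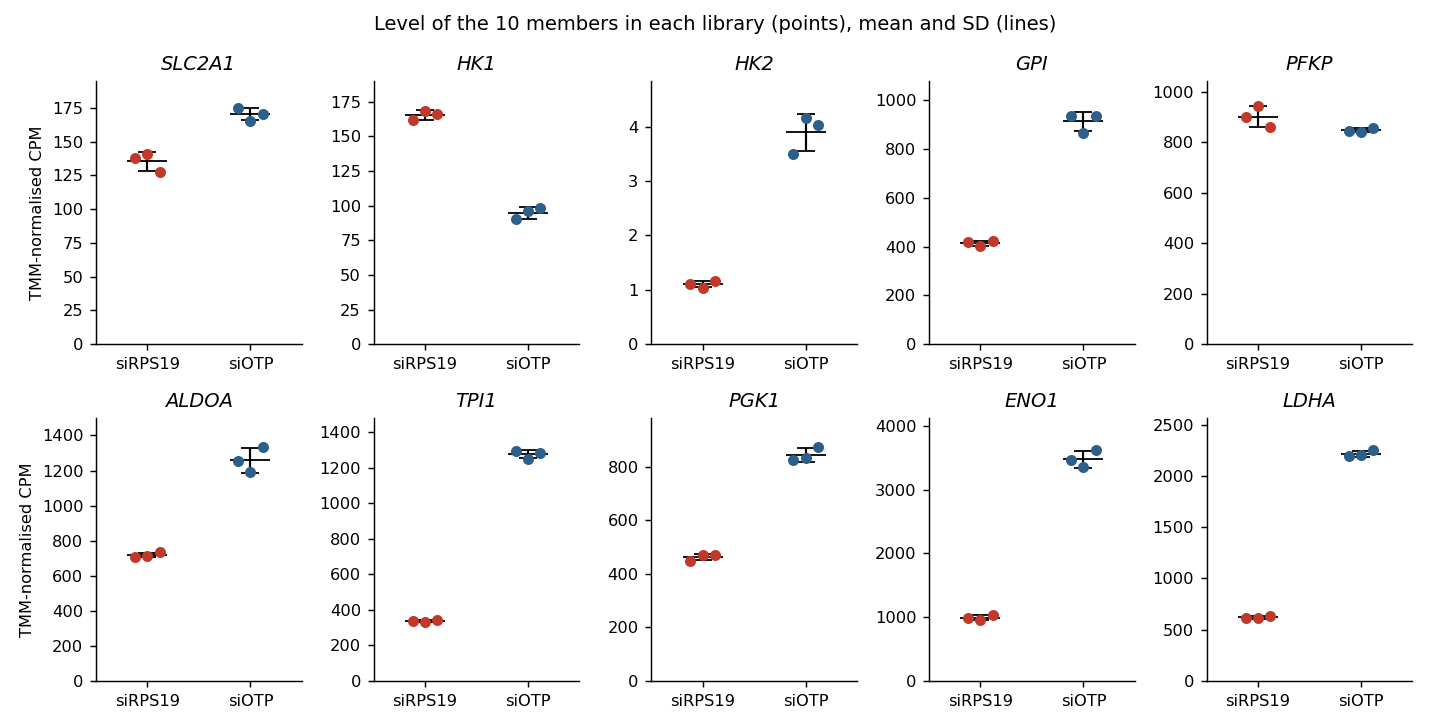
Normalised level (TMM CPM, linear axes from 0) of each of the 10 genes in the siRPS19 and siOTP libraries; points are libraries, the wide line is the mean and the error bar the SD (n = 3). The siRPS19 points lie below all siOTP points for 8 genes and above them for HK1 and PFKP, where PFKP differed least.

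Promoter windows are printed for 5 of these genes, which span the range of responses. These genes are the 3 most abundant of the steep falls (TPI1, LDHA, ENO1), a smaller fall (PGK1) and the single rise (HK1). Each window is 300 bases of RefSeq sequence (GRCh38.p14), from 250 before to 50 after an annotated start, in the direction of transcription. Where a gene has several such windows, the nearest to the start of the principal GENCODE v29 transcript was taken. That distance was 0 bases for TPI1, 175 for LDHA, 564 for ENO1, 74 for PGK1 and 220 for HK1. For HK1 and LDHA the start used lies downstream of the principal start, which puts most of these windows past that start. The ENO1 window does not reach the principal start. Capitals mark ACGTG on either strand (it reads CACGT on the other strand), the core that hypoxia-inducible factors are known to bind, and this core lies on both strands of CACGTG, the E-box that MYC is known to bind. The windows lie at chr12:6867281-6867580 (plus strand), chr11:18394313-18394612 (plus strand), chr1:8878637-8878936 (minus strand), chrX:78103998-78104297 (plus strand) and chr10:69318814-69319113 (plus strand).
TPI1: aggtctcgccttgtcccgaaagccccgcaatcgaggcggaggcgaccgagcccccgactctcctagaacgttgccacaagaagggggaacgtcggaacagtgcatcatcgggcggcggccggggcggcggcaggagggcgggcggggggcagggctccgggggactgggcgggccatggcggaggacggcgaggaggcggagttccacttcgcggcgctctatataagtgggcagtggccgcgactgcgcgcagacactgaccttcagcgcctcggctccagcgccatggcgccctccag
LDHA: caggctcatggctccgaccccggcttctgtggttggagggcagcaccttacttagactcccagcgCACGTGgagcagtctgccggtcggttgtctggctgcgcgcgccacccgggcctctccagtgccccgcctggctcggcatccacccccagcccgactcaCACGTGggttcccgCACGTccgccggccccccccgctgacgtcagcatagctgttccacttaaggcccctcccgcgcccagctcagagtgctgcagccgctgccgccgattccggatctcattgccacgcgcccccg
ENO1: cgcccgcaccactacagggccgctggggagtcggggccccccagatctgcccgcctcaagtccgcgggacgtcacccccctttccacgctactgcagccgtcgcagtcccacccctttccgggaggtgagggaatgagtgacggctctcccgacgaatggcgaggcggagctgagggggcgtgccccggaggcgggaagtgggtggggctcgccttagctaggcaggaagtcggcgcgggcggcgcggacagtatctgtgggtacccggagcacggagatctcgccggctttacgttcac
PGK1: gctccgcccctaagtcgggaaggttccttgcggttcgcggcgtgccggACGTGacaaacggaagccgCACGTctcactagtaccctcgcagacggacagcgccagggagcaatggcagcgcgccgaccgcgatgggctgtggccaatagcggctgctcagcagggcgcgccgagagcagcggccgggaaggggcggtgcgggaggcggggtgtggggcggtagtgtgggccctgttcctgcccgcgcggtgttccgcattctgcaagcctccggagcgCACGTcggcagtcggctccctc
HK1: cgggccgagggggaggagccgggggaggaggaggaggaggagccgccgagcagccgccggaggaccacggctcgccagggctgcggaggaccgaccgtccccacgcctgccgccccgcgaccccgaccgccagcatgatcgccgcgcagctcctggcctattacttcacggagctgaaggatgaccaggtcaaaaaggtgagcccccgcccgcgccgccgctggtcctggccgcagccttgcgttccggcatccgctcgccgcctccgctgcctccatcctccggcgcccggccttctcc
The LDHA window holds ACGTG 5 times and CACGTG 2 times, and the PGK1 window holds ACGTG 3 times and no CACGTG. The windows of TPI1, ENO1 and HK1 hold neither ACGTG nor CACGTG. For ENO1 and HK1 this leaves out most or all of the 250 bases before the principal start. Of the 10 nearest windows, 5 hold ACGTG (HK2, GPI, ALDOA, PGK1 and LDHA) and 2 hold CACGTG (ALDOA and LDHA). Of all 35116 promoter windows of this length, 21.4% and 7.26% do. The comparison is not like for like, because the 35116 windows can count a gene several times and have a median GC content of 58.7%. The 10 windows run from 55.7% to 74.3% GC, with only ALDOA and GPI below that median, and enrichment was not tested. A match of letters is a description and no evidence of binding. Of the 5 printed genes, the 2 with matches lay 3.58-fold (LDHA) and 1.82-fold (PGK1) lower in siRPS19. Without a match, TPI1 lay 3.79-fold and ENO1 3.51-fold lower, and HK1 1.74-fold higher. A further HK2 window, not the nearest, holds ACGTG 4 times and CACGTG 2 times. A link between matches and levels was not tested.

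For glucose uptake, the entry to the pathway, mRNA of the main gene was slightly lower. SLC2A1 (ENSG00000117394, chromosome 1, 43391052 to 43424530, hg19) encodes GLUT1, the basal glucose transporter. It had 138, 141 and 127 CPM in the 3 siRPS19 libraries and 175, 166 and 171 CPM in the 3 siOTP libraries. All siRPS19 libraries were below all siOTP libraries. The log2 fold change was -0.33 ± 0.04 (SE), a fall of 1.26-fold (edgeR adjusted p = 5.44e-07), with lower values in 34.3% of tested genes. This call depended on scaling. When libraries were scaled by their totals alone, the median over all tested genes moved to 0.31, and SLC2A1 stood at -0.04 (adjusted p = 0.358).

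The other transporter genes of the family went the other way or did not pass. Of the 12 others, 9 were tested, 6 were higher and none was lower, and SLC2A3, SLC2A4 and SLC2A5 did not pass. Among all genes tested, 39.5% were higher and 38.9% lower, and this small set was not tested as such. SLC2A12 (GLUT12) averaged 10.0 ± 0.911 CPM in siRPS19 and 1.65 ± 0.369 CPM in siOTP libraries (SD, n = 3 each), 6.04-fold higher (adjusted p = 2.19e-12). SLC2A8 (GLUT8, a mostly intracellular transporter) averaged 37.7 ± 1.16 CPM in siRPS19 and 16.9 ± 1.89 CPM in siOTP libraries, 2.23-fold higher (adjusted p = 4.62e-12). These genes start from low levels. SLC2A11 was 2.15-fold higher, the inositol transporter gene SLC2A13 1.34-fold higher and SLC2A6 1.18-fold higher. SLC2A14, at 2.73-fold higher, is a near-copy of SLC2A3 and its reads are uncertain. SLC2A3 (GLUT3), the high-affinity transporter, had overlapping groups at 52.2 ± 5.21 CPM in siRPS19 and 45.0 ± 5.07 CPM in siOTP libraries (adjusted p = 0.0561).

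Per length, the whole family summed to nearly the same level. The summed level was 65.8 ± 1.89 CPM per kilobase in siRPS19 and 62.7 ± 1.88 in siOTP libraries, with overlapping groups and a ratio of 1.049, or 1.28 with library totals. Within that sum SLC2A1 made up 48.9% ± 1.58 in siRPS19 and 64.6% ± 1.24 in siOTP libraries (SD, n = 3 each). SLC2A8 made up 14.6% ± 0.759 in siRPS19 and 6.87% ± 0.571 in siOTP libraries. The log2 ratio of SLC2A1 to SLC2A3, formed inside each library and free of scaling between libraries, was 0.55 lower in siRPS19 (exact permutation p = 0.1, two-sided). That is the smallest p that 3 libraries against 3 allow, for this and the 6 other ratios below, and it is also their value after adjustment over the 7.

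Hexokinase, which commits glucose to the cell, changed its make-up. Its level summed together with ADPGK had overlapping groups. HK1 (ENSG00000156515, chromosome 10, 71029740 to 71161638, hg19) encodes the housekeeping hexokinase. It had 161, 168 and 166 CPM in siRPS19 libraries and 90.03, 95.9 and 98.4 CPM in siOTP libraries. The siRPS19 libraries were all higher, with a log2 fold change of 0.80 ± 0.04 (SE), or 1.74-fold (edgeR adjusted p = 3.00e-13), and 77.4% of tested genes lay below it. HK2 (ENSG00000159399, chromosome 2, 75061108 to 75120486, hg19) encodes the inducible hexokinase of many tumours. It was scarce throughout, with 29, 24 and 28 counts (1.12, 1.04 and 1.16 CPM) in siRPS19 libraries and 73, 82 and 78 counts (3.50, 4.15 and 4.02 CPM) in siOTP libraries. The groups were well apart at -1.81 ± 0.18 (SE), or 3.50-fold lower (adjusted p = 1.38e-08), and this gene has the widest error of the 10.

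Other glucose-phosphorylating genes were lower. HKDC1 (a hexokinase-like gene) averaged 44.0 ± 1.19 CPM in siRPS19 and 68.9 ± 1.73 CPM in siOTP libraries, 1.57-fold lower (adjusted p = 5.75e-11). ADPGK, which uses ADP in place of ATP, averaged 80.3 ± 2.88 CPM in siRPS19 and 117 ± 0.744 CPM in siOTP libraries, 1.45-fold lower (adjusted p = 1.78e-10). The step with ADPGK counted stood at 50.8 ± 0.570 CPM per kilobase in siRPS19 and 51.7 ± 0.610 in siOTP libraries. The ratio was 0.983 with overlapping groups (1.199 with library totals). ADPGK, the ADP-dependent gene, supplied 26.6% ± 1.01 of that sum in siRPS19 and 38.1% ± 0.210 in siOTP libraries. No sum without ADPGK was formed. HK1 supplied 52.7% ± 0.945 of the sum in siRPS19 and 29.7% ± 1.06 in siOTP libraries. HK2 supplied 0.358% ± 0.0172 in siRPS19 and 1.24% ± 0.0959 in siOTP libraries. The log2 ratio of HK2 to HK1 was 2.62 lower in siRPS19, the widest shift of the 7 ratios (exact permutation p = 0.1).

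**Figure D2:**
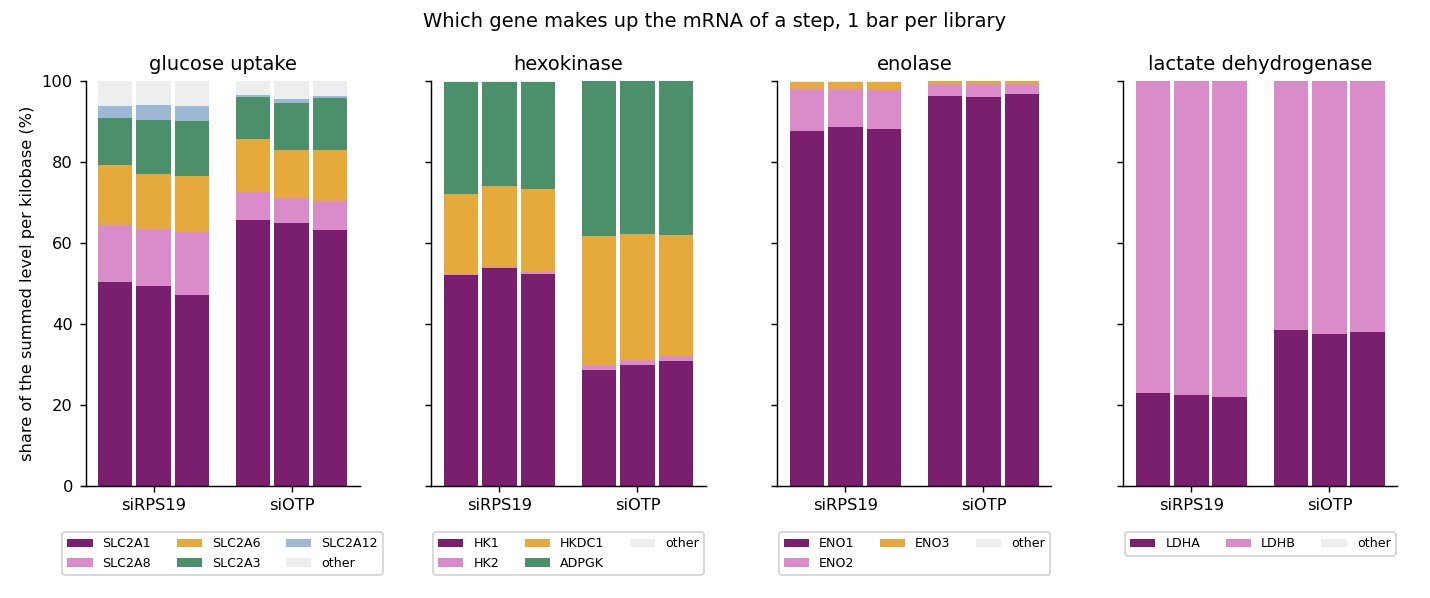
Share (%) of the summed level per kilobase that each gene of a step takes, 1 bar per library, siRPS19 libraries left and siOTP libraries right. HK1 takes 52.0% to 53.8% of the summed hexokinase step, which counts ADPGK, in siRPS19 and 28.6% to 30.7% in siOTP libraries. LDHA takes 21.9% to 22.98% of lactate dehydrogenase mRNA per length in siRPS19 and 37.6% to 38.5% in siOTP libraries.

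Glucose-6-phosphate isomerase has a single gene, whose mRNA was lower. GPI (ENSG00000105220, chromosome 19, 34850385 to 34893061, hg19) had 418, 402 and 422 CPM in siRPS19 libraries and 938, 869 and 937 CPM in siOTP libraries. No siRPS19 library came near the siOTP range, and the log2 fold change was -1.14 ± 0.04 (SE), or 2.21-fold lower (edgeR adjusted p = 1.23e-15).

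Phosphofructokinase, the main control point of the pathway, did not share the lower levels of the steps around it. PFKP (ENSG00000067057, chromosome 10, 3108525 to 3179904, hg19), the platelet-type subunit gene, had 900.4, 944 and 861 CPM in siRPS19 libraries and 847, 842 and 859 CPM in siOTP libraries. The groups did not overlap, but the lowest siRPS19 library lay just above the highest siOTP library. Its log2 fold change of 0.09 ± 0.04 (SE) did not pass (edgeR adjusted p = 0.0664). With the replicate number as a block, which pairs libraries of the same date, it did (adjusted p = 0.0480), and the differences within pairs were 0.09, 0.16 and 0.00. PFKP also passed with library totals, at 0.37 (adjusted p = 1.52e-07). The liver-type gene PFKL was 1.23-fold higher (115 ± 3.95 CPM in siRPS19, 93.7 ± 5.80 CPM in siOTP libraries) and the muscle-type gene PFKM 1.17-fold higher (108 ± 3.57 CPM in siRPS19, 92.1 ± 2.20 CPM in siOTP libraries). PFKP made up 87.3% ± 0.508 of the step in siRPS19 and 88.6% ± 0.243 in siOTP libraries, and its log2 ratios to PFKL and PFKM were 0.21 and 0.14 lower in siRPS19 (exact permutation p = 0.1 for each).

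The mRNA of the main genes for splitting the sugar and interconverting the triose phosphates was lower. ALDOA (ENSG00000149925, chromosome 16, 30064411 to 30081778, hg19), the main aldolase gene, had 707, 714 and 734 CPM in siRPS19 libraries and 1253, 1190.2 and 1333 CPM in siOTP libraries. The groups were far apart, at -0.81 ± 0.04 (SE), or 1.75-fold lower (edgeR adjusted p = 8.45e-13). The rare gene ALDOC had overlapping groups and was 1.58-fold higher (2.73 ± 0.690 CPM in siRPS19, 1.74 ± 0.296 CPM in siOTP libraries, adjusted p = 0.00837), and the log2 ratio of ALDOA to ALDOC was 1.44 lower in siRPS19 (exact permutation p = 0.1). ALDOA still held 99.2% ± 0.214 of aldolase mRNA in siRPS19 and 99.7% ± 0.0652 in siOTP libraries.

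TPI1 showed the largest fold of the 10 genes. TPI1 (ENSG00000111669, chromosome 12, 6976283 to 6980112, hg19) encodes triosephosphate isomerase, which lets both products of aldolase enter the lower pathway. It had 334, 334 and 341 CPM in siRPS19 libraries and 1293, 1250.4 and 1284 CPM in siOTP libraries. The 3 siRPS19 libraries agreed closely and lay far below the siOTP range, at -1.92 ± 0.04 (SE), or 3.79-fold lower (edgeR adjusted p = 7.54e-20). TPI1 overlaps SPSB2 on the opposite strand. SPSB2 held 597, 572 and 594 counts in siRPS19 and 406, 374 and 425 in siOTP libraries, few beside the 7704 to 26950 counts on TPI1. Its 4 named pseudogenes held at most 813 counts in a library, or 3.29% of those of TPI1.

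From the triose phosphates to pyruvate, the levels of most genes were lower, with the last step least affected. GAPDH, which makes the NADH of glycolysis and is often used as a reference transcript, averaged 1248 ± 24.5 CPM in siRPS19 and 2757 ± 76.4 CPM in siOTP libraries, 2.21-fold lower (edgeR adjusted p = 7.27e-16). PGK1 (ENSG00000102144, chromosome X, 77320685 to 77384793, hg19), the first ATP-forming enzyme, had 449, 469 and 473 CPM in siRPS19 libraries and 826, 834 and 873 CPM in siOTP libraries. Its groups did not overlap, at -0.87 ± 0.04 (SE), or 1.82-fold lower (adjusted p = 5.95e-14). Phosphoglycerate mutase gene PGAM1 was 2.33-fold lower (219 ± 4.12 CPM in siRPS19, 509 ± 8.18 CPM in siOTP libraries). PGAM4, a near-copy of PGAM1 whose reads are uncertain, was 2.29-fold lower. BPGM, a related mutase, stood at -0.16 (adjusted p = 0.0247) and at 0.12 with library totals, so its direction depends on the scaling.

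Enolase had the most abundant mRNA of the 10 genes. ENO1 (ENSG00000074800, chromosome 1, 8921061 to 8939308, hg19), the ubiquitous enolase gene, had 985, 953 and 1036 CPM in siRPS19 libraries and 3459.5, 3357 and 3619 CPM in siOTP libraries. No siRPS19 library overlapped siOTP, at -1.81 ± 0.05 (SE), or 3.51-fold lower (edgeR adjusted p = 1.85e-18). In the authors' deposited table ENO1 ranked 90th by RPKM (reads scaled by transcript length and library size) among all genes in siRPS19 and 32nd in siOTP. ENO2, the neuronal-type gene, had overlapping groups at 119 ± 9.18 CPM in siRPS19 and 111 ± 6.50 CPM in siOTP libraries (adjusted p = 0.105), and the muscle-type gene ENO3 was 1.29-fold lower. Of enolase mRNA per length, ENO2 took 9.82% ± 0.544 in siRPS19 and 2.86% ± 0.263 in siOTP libraries, and the log2 ratio of ENO1 to ENO2 was 1.91 lower in siRPS19 (exact permutation p = 0.1). ENO4, a rarer gene outside the naming rule and named after its values were seen, was 3.11-fold higher.

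PKM, the pyruvate kinase gene and the most abundant of the pathway by CPM, averaged 3955 ± 161 CPM in siRPS19 and 4492 ± 205 CPM in siOTP libraries. It was 1.14-fold lower (edgeR adjusted p = 0.00107), and at 0.10 with library totals (adjusted p = 0.0782), so that its direction turns with the scaling. The counts are per gene and do not separate its splice forms.

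Lactate dehydrogenase fell in both of its main genes, unequally. LDHA (ENSG00000134333, chromosome 11, 18415935 to 18429972, hg19) encodes the subunit that favours making lactate. It had 609, 617 and 635 CPM in siRPS19 libraries and 2197, 2204 and 2251 CPM in siOTP libraries. The groups were far apart and tight, at -1.84 ± 0.04 (SE), or 3.58-fold lower (edgeR adjusted p = 2.28e-19). LDHB, whose subunit favours turning lactate back into pyruvate, averaged 1031 ± 52.2 CPM in siRPS19 and 1734 ± 41.3 CPM in siOTP libraries, 1.68-fold lower (adjusted p = 2.50e-12). The log2 ratio of LDHA to LDHB per length was -1.79 ± 0.04 in siRPS19 and -0.70 ± 0.03 in siOTP libraries (SD, n = 3 each), a difference of -1.09 (exact permutation p = 0.1). LDHA made up 22.4% ± 0.521 of the summed level in siRPS19 and 38.05% ± 0.447 in siOTP libraries. These shares rest on the authors' lengths, with 6210 bases for LDHA against 2416 for its principal transcript. By CPM alone LDHA averaged 620 in siRPS19, below LDHB, and 2217 in siOTP libraries, above LDHB. The 6 named LDHA pseudogenes held at most 1074 counts in a library, or 2.45% of those of LDHA.

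**Figure D3:**
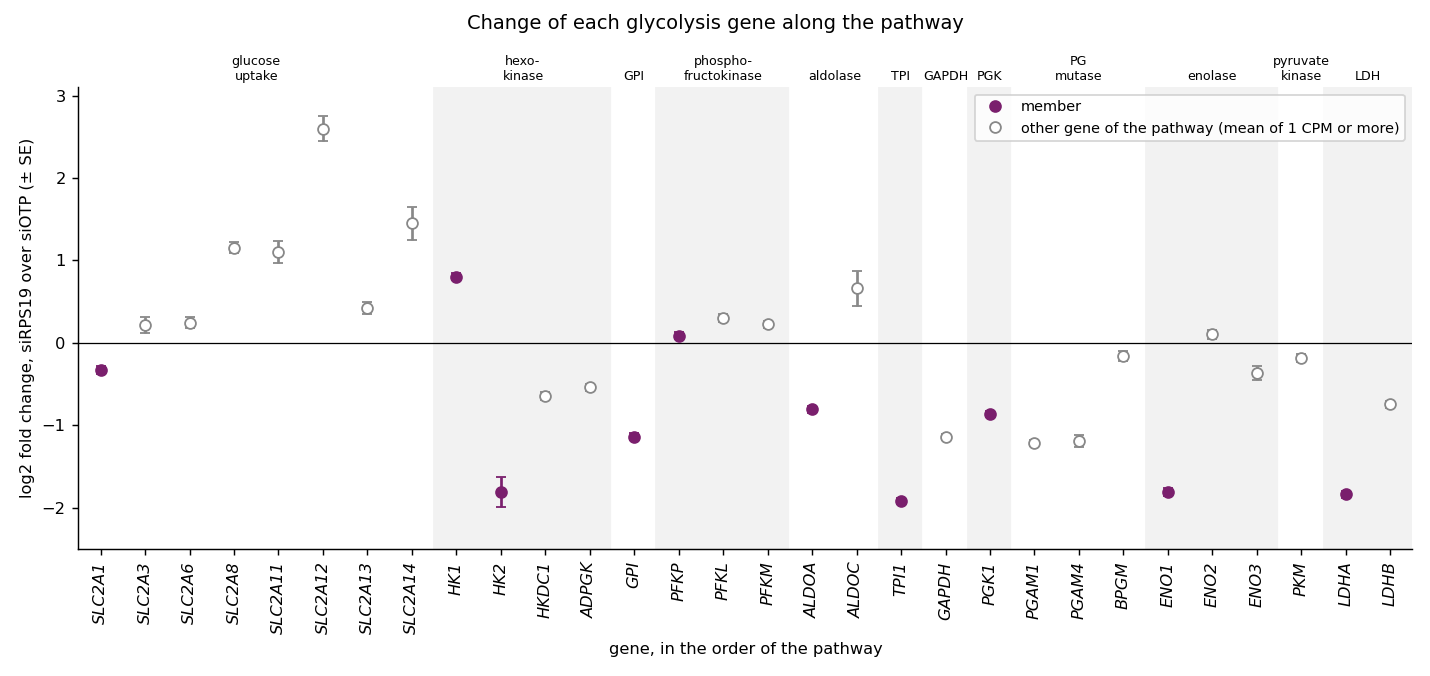
Log2 fold change (siRPS19 over siOTP, error bars SE) of the 10 genes (filled) and of the other glycolysis genes with a mean of 1 CPM or more (open), in pathway order. The other transporter genes lie above 0 while TPI1, ENO1, HK2 and LDHA lie between -1.81 and -1.92.

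Set side by side, the steps of the pathway differed in size and direction. When the levels per kilobase of all genes of a step were summed, 9 of 12 steps were lower in siRPS19 without overlap, and 6 of them stood at 0.475 of the siOTP level or less. Triosephosphate isomerase was at 0.264, enolase at 0.311, and the mutase, GAPDH, GPI and lactate dehydrogenase steps at 0.451 to 0.475. Phosphoglycerate kinase was at 0.549 and aldolase at 0.573. Uptake and the hexokinase step, with ADPGK counted, had overlapping groups. Phosphofructokinase was at 1.08 without overlap, while GPI between hexokinase and phosphofructokinase was at 0.453. Pyruvate kinase was at 0.881, and at 1.07 with library totals, the 1 step of the 9 whose direction turned on that scaling. No test was made of these sums, which rest on the transcript lengths of the authors' table.

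**Figure D4:**
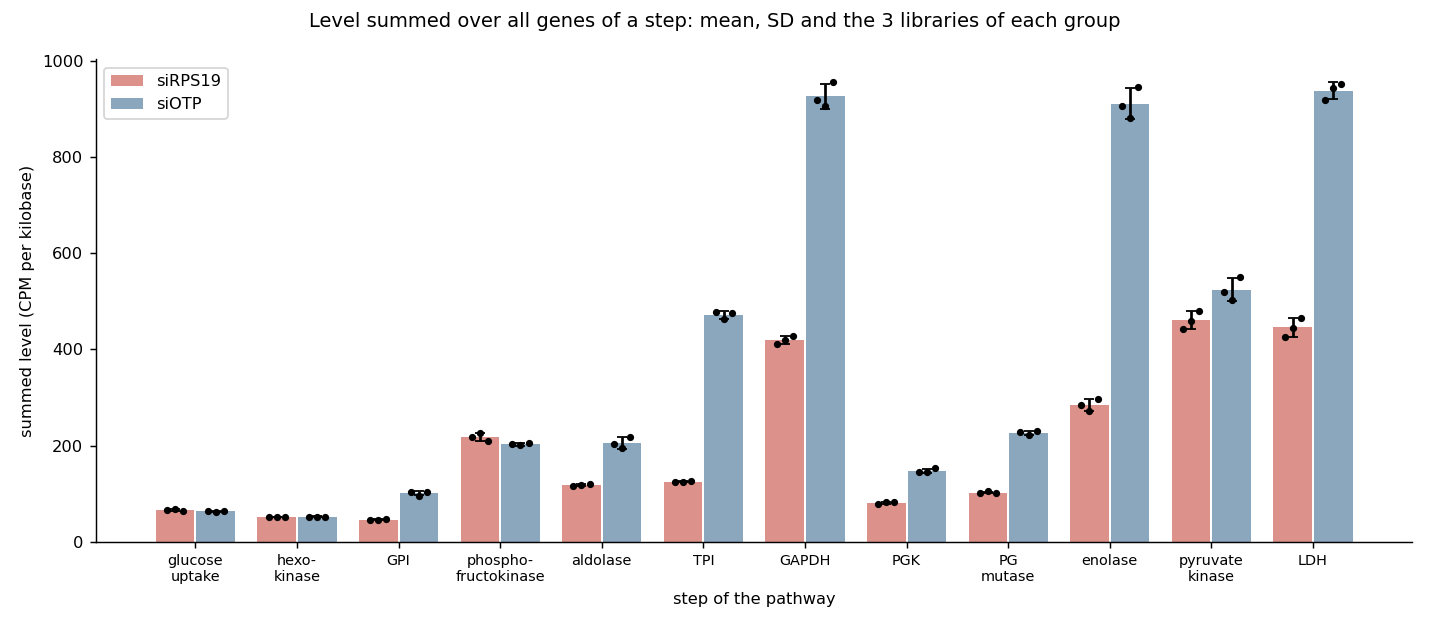
Summed level (CPM per kilobase) over all genes of each step, siRPS19 left and siOTP right in each pair; bars are means, error bars SD, points the 3 libraries of a group. Enolase reaches 284 in siRPS19 and 912 in siOTP, while the hexokinase step, with ADPGK counted, stays at 50.8 and 51.7.

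The order of the 10 genes by level per kilobase also changed. In siRPS19 it ran from ENO1 (250 ± 10.5 CPM per kilobase) over PFKP (190 ± 8.74), TPI1 (125 ± 1.52), ALDOA (117 ± 2.30), LDHA (99.9 ± 2.16), PGK1 (81.0 ± 2.23), GPI (45.5 ± 1.15), SLC2A1 (32.2 ± 1.72) and HK1 (26.8 ± 0.550) to HK2 (0.182 ± 0.00984). In siOTP it ran from ENO1 (879 ± 33.4 CPM per kilobase) over TPI1 (472 ± 8.24), LDHA (357 ± 4.76), ALDOA (205 ± 11.7), PFKP (179 ± 1.81), PGK1 (148 ± 4.40), GPI (100.3 ± 4.36), SLC2A1 (40.5 ± 1.07) and HK1 (15.4 ± 0.696) to HK2 (0.642 ± 0.0569), with SD over 3 libraries in each case. Every neighbour in either order differed by more than the SD of each. PFKP stood second in siRPS19, above TPI1, ALDOA and LDHA, and below all 3 of them in siOTP. The order rests on the transcript lengths of the authors' table. With principal-transcript lengths from GENCODE v29, an alternative added after the data were seen, ranks changed for 2 genes in siOTP and for 8 in siRPS19, where ALDOA came first.

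Among the 10 genes, those of like fold change had close profiles over the 6 libraries. The root mean square difference in centred log2 CPM was 0.0358 between ENO1 and LDHA and 0.0458 between TPI1 and LDHA. It was 0.0819 between HK2 and LDHA and 0.109 between HK2 and TPI1. Between ALDOA and PGK1, which fell less, it was 0.0446. The widest distance was 1.36, between HK1 and TPI1. Over 11404 genes with a mean of 5 CPM or more, the 3 whose profile was closest to TPI1 were NUP205 (0.0196), a nuclear pore scaffold gene, HMGN2 (0.0306), a nucleosome-binding protein gene, and HSPD1 (0.0321), the mitochondrial chaperonin gene. HSPD1 averaged 432 ± 15.5 CPM in siRPS19 and 1623 ± 18.8 CPM in siOTP libraries, 3.76-fold lower. NUP205, HMGN2 and HSPD1 stood at log2 fold changes of -1.89, -1.89 and -1.91, beside -1.92 for TPI1.

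Over the whole list of 36 other glycolysis genes, 23 were tested, 10 were higher and 9 lower, and 4 did not pass. These shares, 43.5% higher and 39.1% lower, lie near the 39.5% and 38.9% of all genes tested. Their median log2 fold change was 0.21, beside -1.004 for the 10 genes above and 0.02 for all genes tested. The higher ones were mainly transporters (6), with PFKL, PFKM, ALDOC and ENO4. The lower ones included the abundant GAPDH, PGAM1, PKM and LDHB.

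Past the end of glycolysis, the genes that carry pyruvate into mitochondria or lactate out of the cell were mixed. Of 23 genes of pyruvate and lactate fate, 7 were higher, 9 lower and 7 did not pass, with a median log2 fold change of -0.02. That is 30.4% higher and 39.1% lower, beside 39.5% and 38.9% among all genes tested. The pyruvate dehydrogenase complex, which makes acetyl-CoA from pyruvate, had 4 of 5 genes lower, of which DLD turned with the scaling (-0.11, and 0.18 with library totals). DLAT, its acetyltransferase core, averaged 28.3 ± 1.87 CPM in siRPS19 and 86.8 ± 0.688 CPM in siOTP libraries, 3.07-fold lower (edgeR adjusted p = 7.14e-17). PDHA1 and PDHB, the subunits of its first enzyme, were 1.54-fold and 1.77-fold lower. Of the 7 kinases, phosphatases and regulators of the complex, 4 were higher and none lower. These small counts, and the 4 of 5 in the complex, were not tested as sets. PDK4, a kinase that switches the complex off and a gene outside the naming rule, chosen after its values were seen, had 173, 179 and 218 CPM in siRPS19 libraries and 34.3, 45.6 and 49.5 CPM in siOTP libraries, 4.41-fold higher (adjusted p = 0.000305). GPT, which exchanges pyruvate and alanine, averaged 8.02 ± 1.05 CPM in siRPS19 and 1.15 ± 0.0747 CPM in siOTP libraries, 6.96-fold higher (adjusted p = 3.37e-12).

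Genes of glycogen, gluconeogenesis and hexosamine entry had a balance of calls that depended on the scaling. Of 22 genes 18 were tested, 3 were higher, 10 lower and 5 did not pass, beside 39.5% higher and 38.9% lower among all genes tested. With upper-quartile factors 8 were higher and 8 lower, and with library totals 10 were higher and 6 lower. The median log2 fold change was -0.15, and 0.14 with library totals. GYS1, glycogen synthase, averaged 27.0 ± 2.09 CPM in siRPS19 and 49.7 ± 1.79 CPM in siOTP libraries, 1.84-fold lower (edgeR adjusted p = 2.57e-11). The glycogen synthase kinase genes parted, with GSK3A 1.89-fold lower and GSK3B 1.37-fold higher. PGM2L1, which makes glucose bisphosphate, was 1.87-fold higher (114 ± 2.60 CPM in siRPS19, 61.1 ± 4.78 CPM in siOTP libraries). The gluconeogenic genes FBP1, FBP2, PCK1 and G6PC were too low to be tested.

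The regulators of the pathway held the largest folds of all the lists. Of 24 genes 22 were tested, 10 were higher, 11 lower and 1 (MLXIPL) did not pass, with a median log2 fold change of 0.02. The shares were 45.5% higher and 50% lower, beside 39.5% and 38.9% among all genes tested. TXNIP, an arrestin-like protein that promotes removal of GLUT1 from the cell surface, had 494, 380 and 346 counts (19.0, 16.5 and 14.3 CPM) in siRPS19 libraries and 5, 7 and 2 counts (0.240, 0.355 and 0.103 CPM) in siOTP libraries. The groups were far apart, at a log2 fold change of 6.12 ± 0.22 (SE) (edgeR adjusted p = 2.39e-15), though the few siOTP counts make the size uncertain. ARRDC4, its relative with a like role, averaged 24.4 ± 2.46 CPM in siRPS19 and 1.47 ± 0.282 CPM in siOTP libraries, 16.6-fold higher (adjusted p = 1.17e-16). Their known transcription factors MLXIP (1.30-fold higher) and MLX (2.06-fold lower), named after their values were seen, moved in opposite directions.

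TIGAR, a phosphatase that lowers the sugar bisphosphate that activates phosphofructokinase and that p53 is known to induce, averaged 125 ± 3.58 CPM in siRPS19 and 42.0 ± 1.59 CPM in siOTP libraries, 2.97-fold higher (adjusted p = 1.81e-17). The PFKFB genes encode enzymes that make and remove the same activator. PFKFB3, the main one here, averaged 432 ± 11.1 CPM in siRPS19 and 821 ± 21.7 CPM in siOTP libraries, 1.90-fold lower, and PFKFB4 averaged 22.6 ± 2.46 CPM in siRPS19 and 6.74 ± 0.765 CPM in siOTP libraries, 3.36-fold higher. These 2 were outside the naming rule and chosen after their values were seen.

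The transcription factors best known for driving glycolysis genes were lower. HIF1A averaged 254 ± 4.16 CPM in siRPS19 and 414 ± 13.6 CPM in siOTP libraries, 1.63-fold lower (edgeR adjusted p = 8.26e-13). EPAS1, which encodes the related factor HIF2A, averaged 63.9 ± 1.79 CPM in siRPS19 and 179 ± 7.57 CPM in siOTP libraries, 2.79-fold lower (adjusted p = 1.84e-17). MYC had 98.9, 91.7 and 99.1 CPM in siRPS19 libraries and 213, 201 and 204 CPM in siOTP libraries, without overlap. HIF proteins are known to be controlled mainly by their breakdown, which these mRNA counts do not show.

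**Figure D5:**
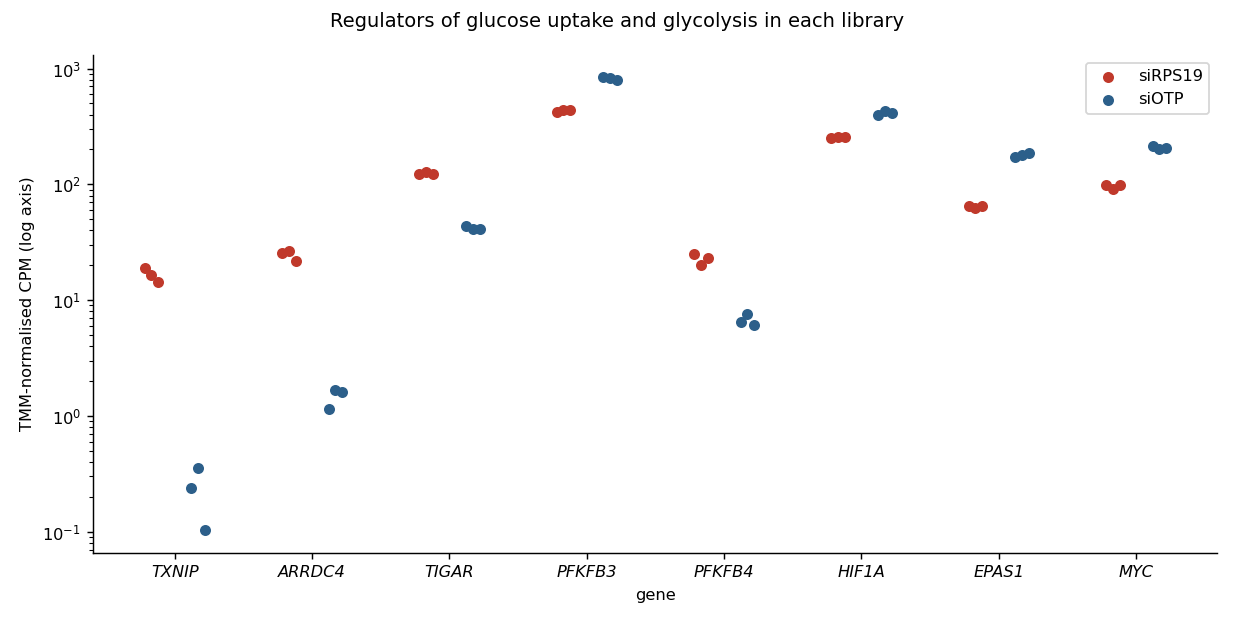
Level (TMM CPM, log axis) of 8 regulator genes in each library, siRPS19 points left and siOTP points right of each gene. TXNIP, ARRDC4, TIGAR and PFKFB4 are higher in all 3 siRPS19 libraries than in any siOTP library, and PFKFB3, HIF1A, EPAS1 and MYC are lower in all 3.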

How the data were processed

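RNA of 6 A549 libraries was sequenced. Reads were processed against hg19 with R (3.0.2), DESeq, HTSeq and TopHat2 (2.0.8b), as the submitters' processing notes list them. How overlapping reads were counted, on which strand and with which annotation is not given in the sources used here. Each deposited library file of the authors holds whole-number counts per Ensembl gene, without normalisation. The deposited table of the authors also gives 1 mean count, treated as an estimated count (tested: the library mean plus 1 for 100% of 62729 genes), and 1 RPKM value per group, used for description and 1 alternative. It supplied symbols, coordinates and lengths, and lacks 423 genes counted. The deposited merged count tables were not used.

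Entries naming no gene were left out of library sizes. Ambiguous reads made up 7.50% to 7.60% of entries in siRPS19 and 8.10% to 8.24% in siOTP libraries. Genes were filtered with filterByExpr (minimum count 10, minimum total 15), scaled with TMM and tested with edgeR 4.0.16 (robust quasi-likelihood, R 4.3.3), Benjamini-Hochberg over 17171 genes, threshold 0.05. CPM values are TMM-normalised. The step levels, shares and ratios used CPM per kilobase of the authors' transcript length. Step sums and shares were not repeated with principal-transcript lengths, so their size and the leading gene of a step depend on the authors' lengths. Ratios were compared by exact permutation.

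Per the description labels, libraries of equal number share a date, whose meaning (transfection or harvest) is not stated, and so form pairs across the groups. Their deviations from group means correlated across genes at 0.09, -0.12 and 0.07. The fit had no block, and the block was an alternative. No pair of replicates agreed within sampling noise (chi-square per degree of freedom 4.40 to 16.6).

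The 10 genes and the lists were chosen with earlier results of these data known. Named are the 10 genes, RPS19, genes of the same and of the remaining steps at a mean of 1 CPM or more, TXNIP, ARRDC4, HIF1A, MYC and TIGAR, up to 4 genes per further list with the smallest p, and the 3 genes most like the one with the largest change. TIGAR is listed under an older symbol. Alternatives were other scalings, filters, DESeq2 1.42.0, limma-voom (limma 3.58.1), the block, leaving out libraries and the authors' RPKM.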

Additional observations from a re-analysis of the deposited data

How the results depend on the processing

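No direction of the 10 genes turned under any alternative run. Among the repeats of their fold changes, 162 kept their side of the threshold and 7 passed where the chosen fit did not (all PFKP). 1 lost its call (SLC2A1 with library totals, -0.04, edgeR adjusted p = 0.358). The 10 from the authors' RPKM have no test, and all 10 moved from the chosen fit by at least the SD within groups. By that RPKM SLC2A1 stood at -0.05, PFKP at 0.37 and HK1 at 1.09, near their values with library totals (-0.04, 0.37 and 1.09). PFKP ranged from 0.04 to 0.37 (adjusted p 1.52e-07 to 0.552). It made the genes called higher 2, against 1, with upper-quartile factors, with library totals, with only genes at a mean of 1 CPM or more, with limma-voom and with the replicate block that pairs libraries by date. Over the fits that left out libraries the count ran from 1 to 2, being 2 where the siRPS19 library of replicate 3 was left out, alone or with its siOTP partner. The count called lower was within 1.5 times of 8 throughout. The replicate block changed no other call among the 10.

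Library totals shifted the median of all tested genes from 0.02 to 0.31, and the cause was not tested. On that scale 13 genes of pyruvate and lactate fate were higher, against 7. For glucose storage and gluconeogenesis 10 were higher and 6 lower, against 3 and 10, and 8 were higher with upper-quartile factors. All 42 repeats of the 7 ratios kept their direction. HK2, at 24 to 82 counts a library, is the gene that depth limits most.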

Other observations

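The oxygen-sensing genes around HIF1A and EPAS1 moved in several directions. They were named after their values were seen. ARNT, the shared partner of both factors, averaged 59.6 ± 2.59 CPM in siRPS19 and 48.9 ± 2.87 CPM in siOTP libraries (SD, n = 3 each), 1.22-fold higher. VHL, which marks both factors for breakdown, averaged 93.4 ± 2.35 CPM in siRPS19 and 67.1 ± 2.61 CPM in siOTP libraries, 1.39-fold higher. The prolyl hydroxylase genes that prepare this step parted, with EGLN1 1.40-fold lower, EGLN2 1.42-fold lower and EGLN3 1.17-fold higher.

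Of 5 lactate transport genes, 3 were lower, 1 was higher and 1 did not pass, beside 38.9% lower and 39.5% higher among all genes tested. SLC16A1, a main lactate transporter, averaged 84.5 ± 2.89 CPM in siRPS19 and 114 ± 5.02 CPM in siOTP libraries, 1.35-fold lower. BSG, which carries these transporters to the membrane, averaged 358 ± 10.8 CPM in siRPS19 and 494 ± 51.9 CPM in siOTP libraries, 1.38-fold lower. SLC16A8, a rare transporter gene, averaged 1.97 ± 0.405 CPM in siRPS19 and 0.168 ± 0.0795 CPM in siOTP libraries (log2 fold change 3.52 ± 0.36 SE, edgeR adjusted p = 1.47e-08), and SLC16A7 did not pass at 0.35 (adjusted p = 0.370). SLC16A3 stood at -0.31, and at -0.03 with library totals (edgeR adjusted p = 0.642). The genes of the mitochondrial pyruvate carrier went apart, MPC1 2.64-fold higher and MPC2 1.73-fold lower. These genes were likewise named after their values were seen.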
